A study of Mus musculus with 9 samples.

Results

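Secreted proteins of the acute phase and of tissue remodelling were followed through osteoblastic induction of mouse bone marrow stromal cells: 8 genes of the 22180 measured, namely Chil1, Lcn2, Saa3, Wfdc1, Slpi, Ptx3, Hp and Cp. The group was selected on measured values: it was put together because Chil1, Lcn2 and Wfdc1 were higher in induced than in undifferentiated cells. Their differences from undifferentiated cells are therefore a description with no test. The other 5 genes joined them by function, with earlier results of these data known. All 8 were found, each with 1 probe set annotated to that gene alone.

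The arrays measured total RNA of MSC2, a clonal mesenchymal stromal line from the bone marrow of C57BL/6 mice aged 6 weeks. Undifferentiated MSC2 cells, kept in alpha-MEM lacking ascorbic acid, gave 3 arrays. MSC2 cells taken at confluence and induced for 14 days gave 3, and cells induced for 28 days gave 3, in DMEM to which pyruvate (1 mM), beta-glycerophosphate (10 mM), ascorbate phosphate (0.2 mM) and the glucocorticoid dexamethasone (0.1 µM) had been added. All media held 10% serum. MSC2 is 1 clone, and induced and undifferentiated cultures differ in medium, confluence and age as well as in induction, so these cannot be told apart. Whether the replicates of a group came from separate starting cultures is not said beyond the word independent, so p-values measure the spread between these arrays.

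The acute phase is the change in plasma proteins that follows injury or infection. Interleukin 6 and interleukin 1, acting through STAT3, C/EBP and NF-kappa B factors and helped by glucocorticoids, switch on its genes in the liver, and many of them are also made by stromal cells outside it. Their products bind iron, haem, copper or lipid, block proteases released by neutrophils, or coat microbes and matrix. Chitinase-like proteins such as that of Chil1 keep the fold of a chitinase without the enzyme activity, and are known from macrophages, cartilage and joint lining in inflamed or remodelling tissue.

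Promoter sequences of 6 of the 8 genes were given, in 7 windows from 250 bases before the annotated start to 50 bases after it (RefSeq, GRCm38.p6). 4 of them are shown, of 3 genes that were higher in induced cells and of Ptx3, which was lower. The windows of Slpi and Cp, which were also higher, are not shown. Capitals mark matches on either strand to the C/EBP motif TTGCNNAA or to the kappa B consensus.
Chil1, chr1:134181906-134182205, plus strand: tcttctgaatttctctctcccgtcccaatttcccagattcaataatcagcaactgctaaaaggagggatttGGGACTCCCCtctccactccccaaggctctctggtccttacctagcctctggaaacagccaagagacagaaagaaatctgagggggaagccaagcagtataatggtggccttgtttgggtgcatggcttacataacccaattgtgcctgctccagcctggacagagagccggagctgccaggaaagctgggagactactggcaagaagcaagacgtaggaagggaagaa
Lcn2, chr2:32387690-32387989, minus strand: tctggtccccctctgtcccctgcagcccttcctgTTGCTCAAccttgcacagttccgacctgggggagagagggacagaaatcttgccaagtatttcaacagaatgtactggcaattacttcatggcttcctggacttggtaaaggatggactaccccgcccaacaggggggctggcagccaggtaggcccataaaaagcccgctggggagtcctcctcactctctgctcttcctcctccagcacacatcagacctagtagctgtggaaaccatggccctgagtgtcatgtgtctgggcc
Saa3, chr7:46715627-46715926, minus strand: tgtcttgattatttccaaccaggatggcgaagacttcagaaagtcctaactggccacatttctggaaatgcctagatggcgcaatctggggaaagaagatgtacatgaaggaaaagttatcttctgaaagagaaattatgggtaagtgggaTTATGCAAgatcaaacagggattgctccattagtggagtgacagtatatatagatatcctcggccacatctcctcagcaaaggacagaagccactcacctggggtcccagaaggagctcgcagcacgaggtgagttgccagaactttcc
Ptx3, chr3:66219637-66219936, plus strand: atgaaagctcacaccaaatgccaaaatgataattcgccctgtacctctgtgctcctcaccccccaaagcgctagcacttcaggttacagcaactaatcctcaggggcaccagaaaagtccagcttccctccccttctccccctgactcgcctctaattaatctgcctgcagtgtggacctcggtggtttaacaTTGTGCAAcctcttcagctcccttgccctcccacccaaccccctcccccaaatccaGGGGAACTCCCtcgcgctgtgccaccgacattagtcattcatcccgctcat
The C/EBP motif occurred in a window of 5 of the 6 genes (Lcn2, Saa3, Slpi, Ptx3 and Cp), against 12.2% of the 27025 genes that have a promoter window. In Saa3 it began 99 bases before the start, in Lcn2 216 bases and in Ptx3 57 bases. The kappa B consensus was found in Chil1, where it began 179 bases before the start, and in Ptx3, where it formed 2 overlapping matches across the start. Over all genes with a window, 9.55% held it. The STAT motif TTCNNNGAA and the palindromic glucocorticoid receptor element occurred in none of the 6 genes, against 9.55% and 0.537% of all genes. Motifs were found both in genes that were higher and in the gene that was lower, and a match is a description of the letters, not a binding site.

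Values are log2 signals after RMA, a standard way of summarising the probes of a probe set, and within each probe set the median of the 9 arrays had been set to 0. A value therefore compares arrays for 1 gene and holds no level, and a gene that moves steadily has its 14-day values near 0. The 9 arrays separated by group. On the first principal component undifferentiated cells scored between -49.58 and -48.22, cells of 14 days between 17.91 and 18.92, and those of 28 days between 29.94 and 30.86. The values of an array had an SD over genes of 0.439 to 0.447 in undifferentiated cells, 0.0827 to 0.103 at 14 days and 0.153 to 0.161 at 28 days. In bulk RNA, a change in the number of cells that make a transcript and a change in RNA per cell cannot be told apart.

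At the level of the group, 7 genes were higher and Ptx3 was lower at both times than in undifferentiated cells. The arrays of the groups did not overlap for any of the 8 genes, at 14 days or at 28 days. Among all genes, 44.8% did not overlap at 14 days and 46.6% at 28 days, and nothing is read from the count, since the group was chosen by these differences. Of the 5 genes that were not the reason for the choice, 4 rose and 1 fell in the fit over all genes at 14 days, where 18.2% of all genes rose and 17.5% fell. The counts were again 4 and 1 at 28 days, where 20.4% of all genes rose and 19.5% fell. These 5 genes were also listed with earlier results of these data known, so nothing is read from counts over them. Sizes differed widely within the group, between 1.19-fold for Slpi and 19.5-fold for Wfdc1 among the higher genes at 14 days. At 28 days they ran between 1.70-fold for Slpi and 35.0-fold for Chil1. The comparisons at 14 and 28 days share the 3 undifferentiated arrays. An alternative used throughout, quantile normalization again, gives every array the same spread of values. In the centred values that spread was smallest at 14 days and largest in undifferentiated cells. Sizes therefore change by construction, and calls kept or lost after it are no independent check. After quantile normalization of the arrays again the same signs held with smaller sizes in most: at 14 days Chil1 stood at 1.94, Wfdc1 at 2.04, Hp at 1.88, Saa3 at 1.71, Cp at 0.89, Lcn2 at 0.33 and Ptx3 at -0.98, and at 28 days Chil1 at 3.21, Wfdc1 at 2.96, Hp at 2.29, Saa3 at 1.62, Cp at 0.90, Lcn2 at 1.47 and Ptx3 at -1.37.

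**Figure D1:**
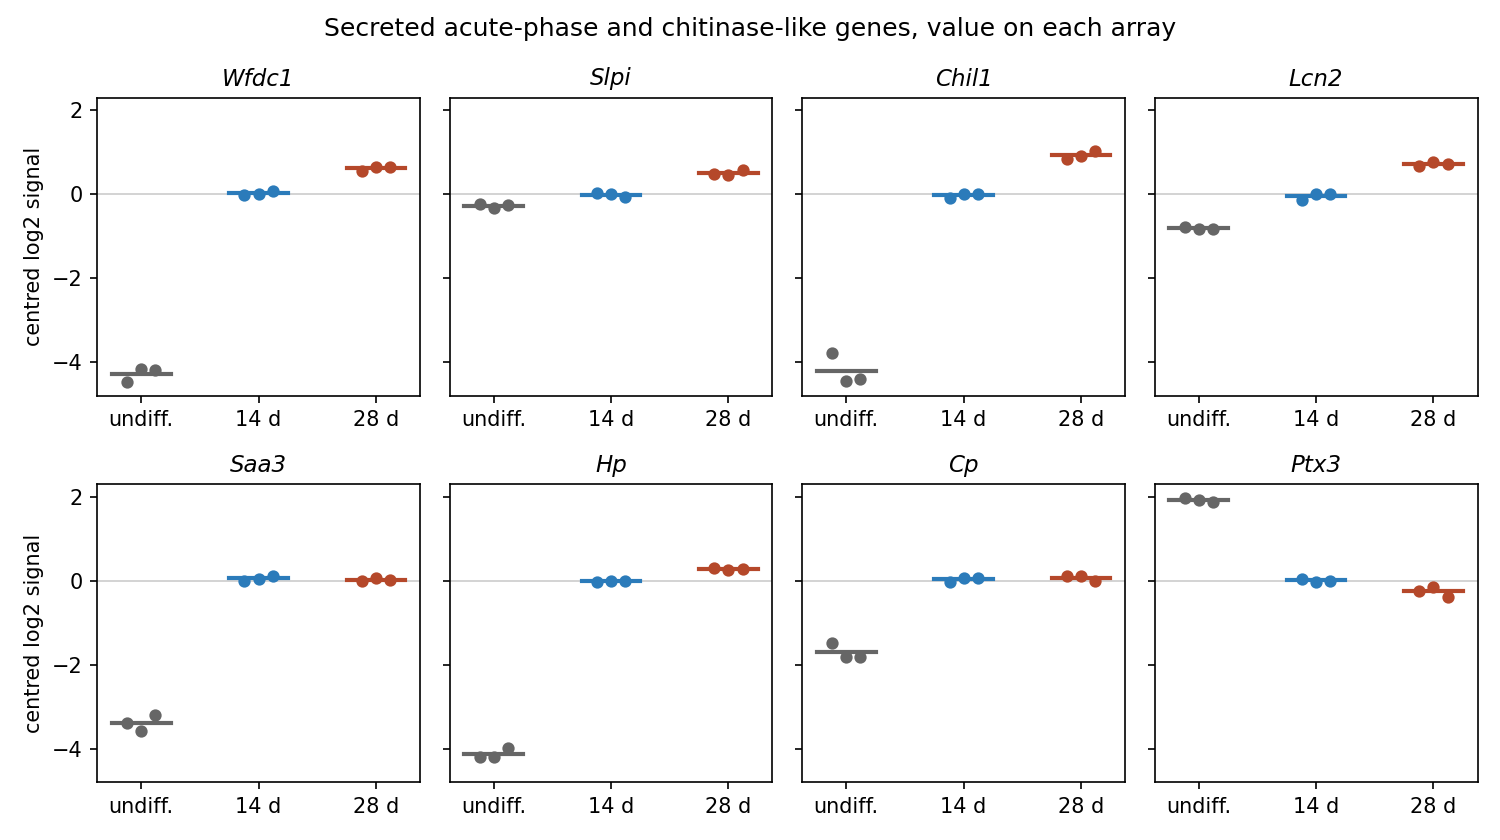
Centred log2 signal of the 8 genes on each of the 9 arrays (vertical axis), with undifferentiated cells in grey, 14 days in blue and 28 days in red; points are arrays and bars are means of 3. Chil1, Wfdc1, Hp and Saa3 lay between -4.47 and -3.20 on undifferentiated arrays and at or above -0.08 on all induced arrays, while Ptx3 ran the other way.

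Wfdc1 and Slpi encode protease inhibitors with whey acidic protein domains. Wfdc1, also known as ps20, is a secreted protein of stromal cells first described in prostate stroma. Its values were -4.47, -4.15 and -4.19 on undifferentiated arrays, -0.01, 0.00 and 0.08 at 14 days, and 0.56, 0.66 and 0.65 at 28 days. The 3 groups did not overlap, and every induced array lay above every undifferentiated array. The difference was 4.29 at 14 days (SE 0.08, 19.5-fold) and 4.89 at 28 days (SE 0.08, 29.7-fold), rank 5 among 22180 genes at both times.

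Slpi, the secretory leukocyte protease inhibitor that blocks neutrophil elastase, differed far less. It had values of -0.22, -0.32 and -0.26 on undifferentiated arrays, 0.03, 0.00 and -0.07 at 14 days, and 0.48, 0.45 and 0.57 at 28 days. The groups stood apart, with the larger step after 14 days. Slpi rose by 0.25 at 14 days (SE 0.05, limma adjusted p = 0.00184), a call that was lost after quantile normalization of the arrays again (0.12, adjusted p = 0.217). At 28 days it had risen by 0.77 (SE 0.05, adjusted p = 3.98e-07).

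Chil1 encodes the chitinase-like protein also called BRP-39, the mouse counterpart of human YKL-40. On undifferentiated arrays it stood at -3.77, -4.45 and -4.39, on 14-day arrays at -0.08, 0.00 and 0.01, and on 28-day arrays at 0.85, 0.91 and 1.03. Undifferentiated replicate 1 was the highest of its group, and the groups did not overlap. The difference was 4.18 at 14 days (SE 0.15, 18.1-fold, rank 9) and 5.13 at 28 days (SE 0.15, 35.0-fold, rank 3). Leaving out each array in turn moved it to between 4.06 and 4.39 at 14 days and between 5.01 and 5.35 at 28 days.

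Lcn2 encodes lipocalin 2, which captures bacterial iron carriers and is known in mice as a hormone released by osteoblasts. The arrays of undifferentiated cells read -0.78, -0.83 and -0.83, those of 14 days -0.13, 0.00 and 0.00, and those of 28 days 0.67, 0.76 and 0.71. The groups did not overlap, and the steps before and after 14 days were of similar size. Lcn2 was higher by 0.77 at 14 days (SE 0.05, 1.70-fold) and by 1.53 at 28 days (SE 0.05, 2.88-fold). Its ranks, 920 and 307, were far below those of Chil1 and Wfdc1.

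Saa3 is the serum amyloid A gene that mice express mainly outside the liver, an apolipoprotein of inflamed tissue. It read -3.40, -3.58 and -3.20 on undifferentiated arrays, 0.00, 0.04 and 0.12 at 14 days, and -0.02, 0.07 and 0.01 at 28 days. Every induced array lay above every undifferentiated array, while those of 14 and 28 days overlapped. Saa3 rose by 3.45 at 14 days (SE 0.08, 10.9-fold, adjusted p = 5.02e-10) and by 3.41 at 28 days (SE 0.08, 10.7-fold, adjusted p = 3.06e-10). Cross-hybridisation with the other serum amyloid A genes was not tested. Saa2, which the liver makes in the acute phase, has a probe set of its own and stood at 0.13 at 14 days (adjusted p = 0.216) and 0.17 at 28 days (adjusted p = 0.0866).

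Hp encodes haptoglobin, the plasma protein that binds free haemoglobin. Undifferentiated arrays held -4.21, -4.21 and -3.99, 14-day arrays -0.03, 0.00 and 0.00, and 28-day arrays 0.29, 0.24 and 0.27. The 3 groups were separate, and nearly all of the difference was present at 14 days. Hp rose by 4.13 at 14 days (SE 0.06, 17.5-fold, adjusted p = 3.86e-11) and by 4.40 at 28 days (SE 0.06, 21.1-fold, adjusted p = 1.44e-11), with rank 11 at both times.

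Cp encodes ceruloplasmin, the copper enzyme that oxidizes iron as it leaves the cell. Its values were -1.49, -1.82 and -1.82 in undifferentiated cells, -0.03, 0.06 and 0.06 at 14 days, and 0.10, 0.10 and 0.00 at 28 days. Induced arrays lay above undifferentiated arrays in every case and overlapped among themselves. Cp rose by 1.74 at 14 days (SE 0.08, 3.34-fold, adjusted p = 5.36e-08) and by 1.77 at 28 days (SE 0.08, 3.42-fold, adjusted p = 3.37e-08).

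Ptx3 encodes the long pentraxin 3, a pattern recognition protein made by stromal and immune cells on inflammatory stimulation, which also links hyaluronan chains into matrix. It was the gene of the group that fell. Undifferentiated arrays stood at 1.97, 1.91 and 1.87, 14-day arrays at 0.04, -0.03 and 0.00, and 28-day arrays at -0.24, -0.15 and -0.39. The 3 groups did not overlap. Ptx3 fell by 1.91 at 14 days (SE 0.06, adjusted p = 3.12e-09) and fell by 2.18 at 28 days (SE 0.06, adjusted p = 8.23e-10), which is 3.76-fold and 4.53-fold lower. It ranked 69 and 124 from the bottom of the 22180 genes.

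**Figure D2:**
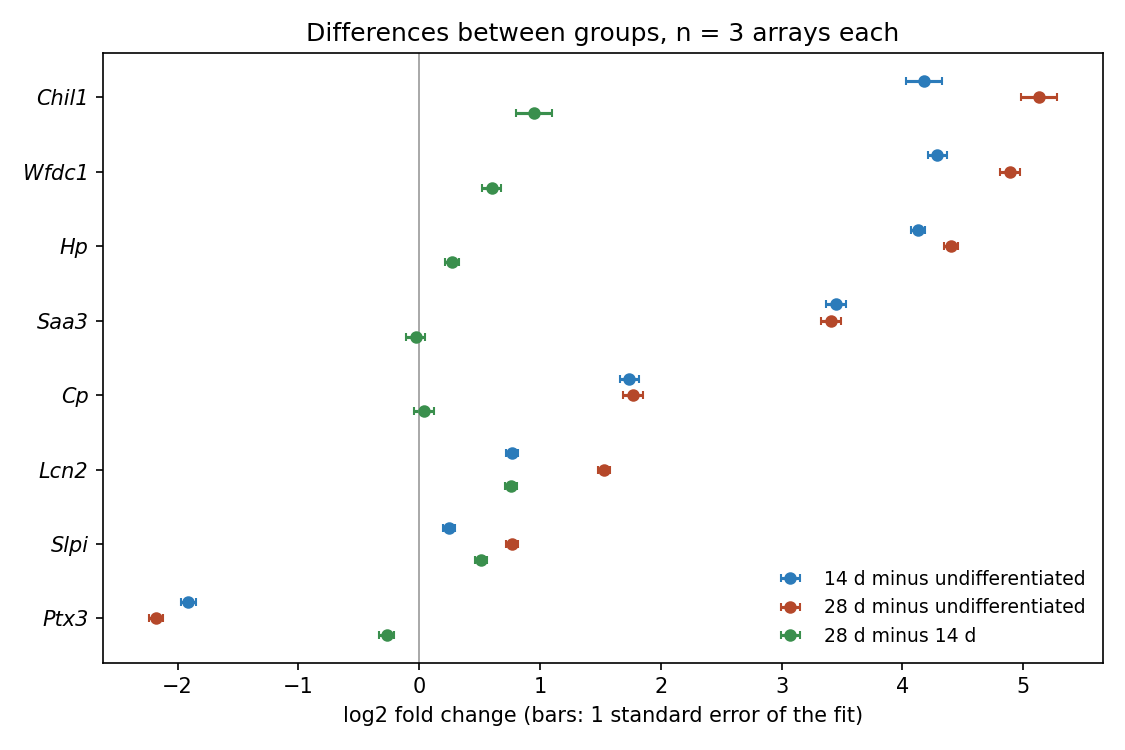
Log2 fold changes of the 8 genes (horizontal axis, bars 1 standard error from the fit, n = 3 arrays per group) for each induced group against undifferentiated cells and for 28 days minus 14 days. Chil1, Wfdc1, Hp and Saa3 differed from undifferentiated cells by 3.41 to 5.13, Ptx3 by -1.91 and -2.18, and the step after 14 days ran between -0.27 and 0.95.

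The comparison of 28 with 14 days gives the step between the induced times. Chil1, Lcn2 and Wfdc1 were chosen for rises over these 3 groups, so their late steps are again a description with no test. Of the other 5 genes, 2 rose, 1 fell and 2 did not pass the test, and their median was 0.04. Among all genes 2.72% rose and 4.67% fell. The arrays of the groups stood apart in 3 of these 5 genes, against 24.4% of all genes.

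Chil1 was 1.94-fold higher at 28 than at 14 days (log2 0.95, SE 0.15), Lcn2 1.69-fold (log2 0.76, SE 0.05) and Wfdc1 1.52-fold (log2 0.60, SE 0.08). Slpi rose 1.43-fold (log2 0.51, SE 0.05, adjusted p = 0.00016). All 28-day arrays of these 4 genes lay above all 14-day arrays. Hp rose by 0.27 (SE 0.06, adjusted p = 0.0183) and Ptx3 fell by 0.27 (SE 0.06, adjusted p = 0.0268). The calls of Hp and Ptx3 were both lost without 14-day replicate 1 (adjusted p = 0.0733 and 0.103), 2 (0.0607 and 0.0653) or 3 (0.0558 and 0.0783), and without 28-day replicate 1 (0.0582 and 0.059) or 3 (0.0529 and 0.058). That of Ptx3 was also lost when only the arrays of these times were fitted (0.0606).

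Saa3 and Cp did not pass the test for the late step. Saa3 differed by -0.03 (SE 0.08, adjusted p = 0.873), with a 95% interval of -0.22 to 0.15. Cp differed by 0.04 (SE 0.08, adjusted p = 0.861), with an interval of -0.15 to 0.22. Whether the late steps of 2 genes differ from each other was not tested. In limma's test against a 1.5-fold change, 0 of the 5 genes passed for the late step, all with adjusted p = 1, where 28 of all genes did; at a null of no change 3 of them had passed.

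Genes of similar course were found by the root mean square (RMS) difference of values over the 9 arrays, among 17275 named genes. Chil1 and Wfdc1 had neighbours in common, as a description only. Lamc3, a laminin chain, was nearest to Chil1 (RMS 0.18), followed by Angptl7 (0.33) and Tm4sf5 (0.42). For Wfdc1 these were Angptl7 (0.15), Lamc3 (0.19) and the matrix gene Aspn (0.28). The genes nearest to Hp were Mmp8, a collagenase (0.09), Aspn (0.13) and Smoc2 (0.14). Msln, which encodes mesothelin, was closest to Saa3 (0.12), with Dpep1 and Aox3 at 0.15. Star, Ntng2 and Flrt1 lay 0.11 from Lcn2. Near Cp were Gxylt2 (0.08), Klf9, a transcription factor induced by glucocorticoids (0.09), and Ephx2 (0.10). Jag1 and Mtbp, both at 0.09, were nearest to Ptx3, and Nrxn2 (0.06), Musk and Krt9 (0.07 each) to Slpi.

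Of other acute-phase plasma proteins, 26 had a probe set of their own. At 14 days 3 (11.5%) rose and 1 (3.85%) fell, against 18.2% and 17.5% of all genes, and 5 (19.2%) rose and 0 fell at 28 days, a share near the 20.4% of all genes. Their median log2 fold change at 28 days was 0.03, against 0.017 over all genes. Serpina3n, an inhibitor of chymotrypsin-like proteases, stood out in size. It read -3.05, -3.0 and -2.89 on undifferentiated arrays, 0.00, 0.01 and 0.00 at 14 days, and 0.47, 0.47 and 0.48 at 28 days. The groups did not overlap, and Serpina3n rose 7.91-fold at 14 days and 10.9-fold at 28 days (log2 3.45, SE 0.05, adjusted p = 1.44e-11). With quantile normalization again the log2 values of Serpina3n were 1.41 and 2.15.

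Lbp, the carrier that presents bacterial lipopolysaccharide to Cd14 and Tlr4, rose by 1.03 at 14 days (adjusted p = 2.26e-08) and 0.97 at 28 days (adjusted p = 2.46e-08). Steap4, a metalloreductase, rose by 1.05 at 28 days (SE 0.07, adjusted p = 9.92e-07) and by 0.51 between 14 and 28 days (adjusted p = 0.00237). Orm1, an acute-phase lipocalin, rose by 0.44 (adjusted p = 0.0116) at 28 days. Apcs, the serum amyloid P gene, rose by 0.15 (adjusted p = 0.0151), a call lost without undifferentiated replicate 2 and after quantile normalization again (adjusted p = 0.0749). Crp, the C-reactive protein gene, stood at -0.06 (adjusted p = 0.475) and Alb, the negative acute-phase protein albumin, at 0.02 (adjusted p = 0.824). Saa1, Trf and C3 were not analysed here.

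**Figure D3:**
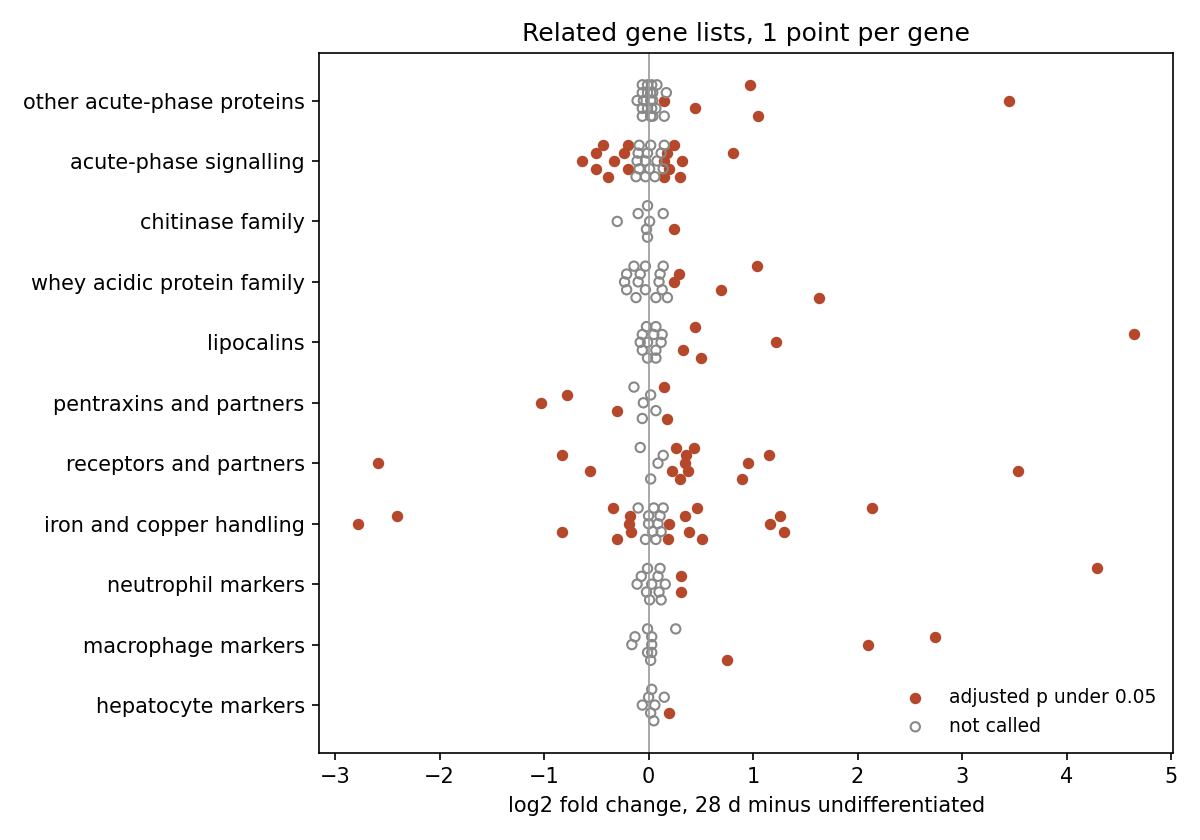
Log2 fold changes, 28 days minus undifferentiated, for the genes of 11 related lists (1 point per gene, stacked only to keep points apart); filled points passed the test and open points did not. Most points lie near 0, with Serpina3n at 3.45, Ptgds at 4.65, Lrp2 at 3.54 and Mmp8 at 4.29 far to the right and Tfrc at -2.78 and Cd44 at -2.59 far to the left.

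Among the cytokines, receptors and transcription factors of the acute phase, 32 were measured. At 14 days 5 (15.6%) rose and 11 (34.4%) fell, against 18.2% and 17.5% of all genes, and at 28 days 8 (25%) rose and 9 (28.1%) fell, against 20.4% and 19.5%. After quantile normalization again the counts were 2 and 10 at 14 days and 4 and 6 at 28 days. In that setting 5200 of all 22180 genes were called at 14 days and 5662 at 28 days, in either direction. The cytokine Il6 fell by 0.33 at 28 days (SE 0.05, adjusted p = 0.000254) and Lif, a cytokine of the same family, fell by 0.50 (adjusted p = 2.64e-06). Il6st, the shared receptor chain gp130, fell by 0.64 (adjusted p = 3.65e-07), while Il6ra, the interleukin 6 receptor, rose by 0.81 (adjusted p = 1.88e-07). Nfkb2 fell by 0.50 (adjusted p = 9.22e-05), and Il1rn, the interleukin 1 receptor antagonist, by 0.44 (adjusted p = 0.00708).

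Apart from Nfkb2, changes in the transcription factors named here were small. Stat3 rose by 0.24 at 28 days (adjusted p = 0.000676) and Nfkbia, an NF-kappa B inhibitor that is also its target, by 0.30 (adjusted p = 0.000617). Cebpb rose by 0.18 (adjusted p = 0.0143), a call lost without undifferentiated replicate 1 and after quantile normalization again (adjusted p = 0.0582). Cebpd rose by 0.20 (adjusted p = 0.026), a call lost under 7 of 18 alternatives, among them leaving out undifferentiated replicate 1 or 2 or 28-day replicate 3. Socs3, a feedback inhibitor of STAT3 signalling, stood at 0.02 (adjusted p = 0.777), and Nr3c1, the glucocorticoid receptor, at -0.01 (adjusted p = 0.957). Between 14 and 28 days Il17rc, Nfkbiz and Osmr rose by 0.24, 0.23 and 0.19 (adjusted p = 0.0384, 0.0218 and 0.0367), and each call was lost when single arrays were left out.

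Relatives of the 8 genes by sequence family were counted next. Of 8 measured chitinases and chitinase-like genes, Ctbs, a lysosomal chitobiase, was the 1 that passed the test, with a rise of 0.24 at 28 days (adjusted p = 0.00528), lost after quantile normalization again (0.18, adjusted p = 0.201). Chil3 was at -0.02, Chit1 at -0.01, Chia1 at 0.01 and Chid1 at -0.10 at 28 days, with adjusted p-values of 0.906, 0.926, 0.931 and 0.137. The 95% interval for Chil3, a chitinase-like gene of mouse macrophages, ran from -0.22 to 0.18.

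Of 20 other genes with whey acidic protein domains, 5 (25%) rose and 0 fell at 28 days, against 20.4% and 19.5% of all genes. Wfdc6a rose by 1.63 (SE 0.11, adjusted p = 7.07e-07), Wfdc17 by 1.04 (SE 0.11, adjusted p = 1.68e-05), Wfdc3 by 0.69 (adjusted p = 0.000115), Wfdc15a by 0.29 and Wfdc2 by 0.24. The call of Wfdc15a was lost without 28-day replicate 2, and that of Wfdc2 (adjusted p = 0.0472) was lost in 8 of the 9 fits that leave out an array. Wfdc6a also rose between 14 and 28 days, by 0.69 (adjusted p = 0.00409). In the lipocalin family 5 of 17 (29.4%) rose at 28 days and 0 fell, against 20.4% and 19.5% of all genes. They were Ptgds, a prostaglandin D synthase, by 4.65 (2.33 after quantile normalization again), C8g by 1.22, Apod by 0.50, Orm1 by 0.44 and Rbp4, the retinol carrier, by 0.33. Rbp4 was not called once the arrays had been quantile normalized again (adjusted p = 0.0678).

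Of 10 measured pentraxins and partners of Ptx3, 2 (20%) rose and 3 (30.0%) fell at 28 days, against 20.4% and 19.5% of all genes, with a median of -0.06. Tnfaip6, whose product TSG-6 works with pentraxin 3 in building hyaluronan matrix, read 0.86, 1.14 and 1.01 on undifferentiated arrays, -0.06, 0.00 and -0.03 at 14 days, and -0.01, -0.17 and 0.09 at 28 days. Induced arrays lay below undifferentiated arrays throughout. Tnfaip6 fell by 1.03 at both times (SE 0.08, adjusted p = 2.3e-06 at 14 days and 1.83e-06 at 28 days). Svep1, a large matrix protein with a pentraxin domain, fell by 0.78 at 28 days (adjusted p = 2.04e-06), and Itih2, a heavy chain that TSG-6 transfers to hyaluronan, fell by 0.30 (adjusted p = 0.00396). The 2 that rose were Nptx2 and Apcs, by 0.18 and 0.15, and both calls were lost after quantile normalization again. That of Nptx2 was lost under 10 of 18 alternatives, among them leaving out undifferentiated replicate 2 or any 14-day array. Cd44, a hyaluronan receptor that also binds the human Chil1 counterpart, fell by 2.29 at 14 days and by 2.59 at 28 days (SE 0.07, adjusted p = 8.19e-10), with -1.31 and -1.72 after quantile normalization again.

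Receptors and binding partners of the secreted proteins moved mainly upwards. Of 18 measured, 11 (61.1%) rose and 3 (16.7%) fell at 28 days, against 20.4% and 19.5% of all genes, and the median was 0.28. After quantile normalization again 8 rose and 3 fell, where 5662 of all 22180 genes were called in either direction. Lrp2 encodes megalin, the endocytic receptor that takes up lipocalin 2 and many other ligands, and moved most. It read -3.03, -2.99 and -2.98 on undifferentiated arrays, 0.00, 0.00 and 0.00 at 14 days, and 0.53, 0.57 and 0.52 at 28 days. The groups did not overlap, and Lrp2 rose 8.01-fold at 14 days and 11.6-fold at 28 days (log2 3.54, SE 0.04, adjusted p = 5.38e-12). Quantile normalization again gave log2 values of 1.41 and 2.27 for Lrp2. The step of 0.54 after 14 days passed the test as well (SE 0.04, adjusted p = 2.67e-05).

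Slc22a17, another lipocalin 2 receptor, rose by 0.38 at 28 days (SE 0.08, adjusted p = 0.00204). Of the receptors described for the Chil1 protein, Il13ra2 stood at -0.08 (adjusted p = 0.192), and its partner Tmem219 rose by 0.35 (adjusted p = 0.000612). Tlr4, Cd36 and P2rx7, which have been described as serum amyloid A receptors, rose by 0.89, 1.15 and 0.95 at 28 days (SE 0.04, 0.07 and 0.06), with adjusted p-values of 5.94e-08, 4.95e-07 and 1.98e-07. Others so described did not move together. Tlr2 rose by 0.43, Scarb1 fell by 0.56, and Fpr2 and Ager did not pass the test. Cd36 was highest at 14 days and fell by 0.58 from there to 28 days (adjusted p = 0.00117), with -1.39 after quantile normalization again. Not every receptor of the list rose. The genes that fell at 28 days were Cd44, Anxa2 (by 0.83) and Scarb1 (by 0.56, with -0.54 after quantile normalization again). Cd163, the haptoglobin receptor of macrophages, was at 0.02 (adjusted p = 0.832).

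**Figure D4:**
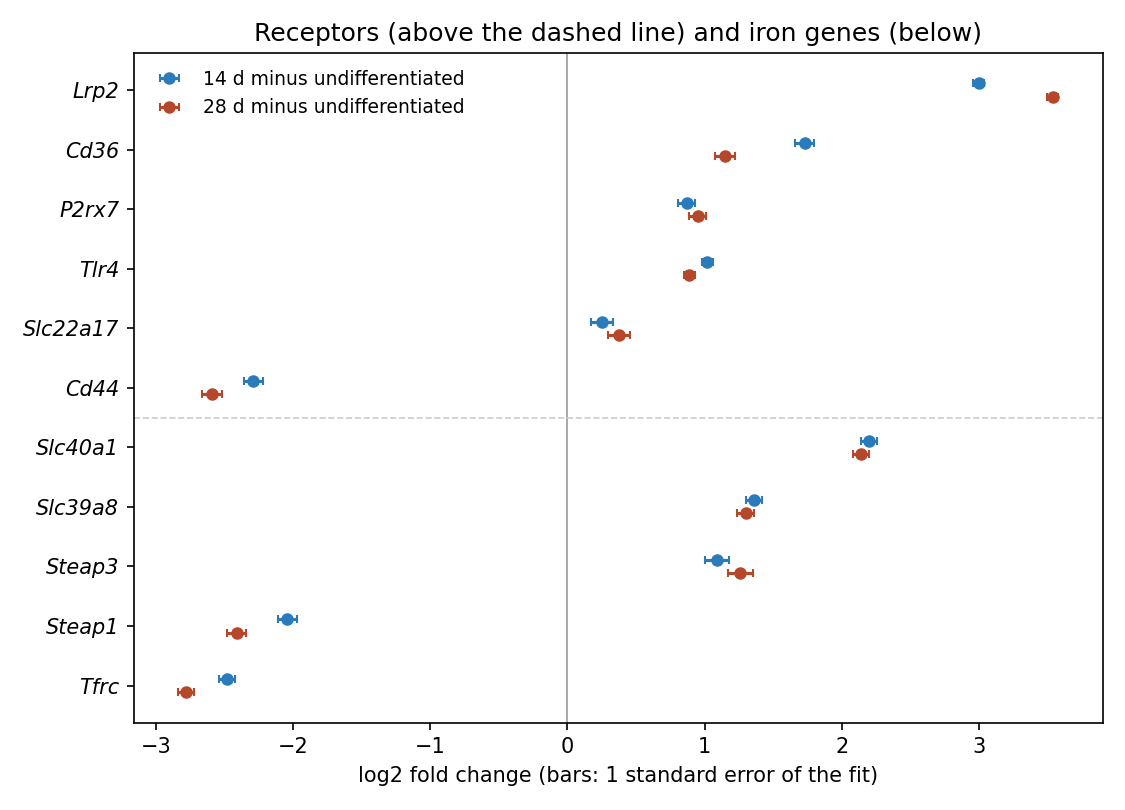
Log2 fold changes at 14 and 28 days against undifferentiated cells (horizontal axis, bars 1 standard error from the fit, n = 3 arrays per group) for 6 receptors and 5 genes of iron handling. Lrp2 reached 3.54 and Slc40a1 2.14 at 28 days, whereas Cd44, Steap1 and Tfrc lay between -2.78 and -2.04 at both times.

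Genes of iron and copper handling, in which Cp, Hp and Lcn2 take part, moved in both directions. Of 29 measured, 10 (34.5%) rose and 8 (27.6%) fell at 28 days, against 20.4% and 19.5% of all genes. After quantile normalization again 7 rose and 5 fell, where 5662 of all 22180 genes were called in either direction. Slc40a1, the iron exporter ferroportin whose iron ceruloplasmin oxidizes, read -2.08, -2.26 and -2.06 on undifferentiated arrays, 0.02, 0.07 and 0.10 at 14 days, and 0.00, 0.08 and -0.07 at 28 days. Like Cp, it differed between induced and undifferentiated arrays with no further step that passed the test (-0.06, adjusted p = 0.668). Slc40a1 rose 4.58-fold at 14 days and 4.40-fold at 28 days (log2 2.14, SE 0.06, adjusted p = 1.09e-09). The log2 values of Slc40a1 were 1.15 and 1.03 after quantile normalization again.

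Tfrc, the transferrin receptor that brings iron into cells, ran in the opposite direction. Its values were 2.57, 2.55 and 2.43 on undifferentiated arrays, 0.00, -0.03 and 0.13 at 14 days, and -0.23, -0.32 and -0.22 at 28 days. It fell by 2.78 at 28 days (SE 0.06, adjusted p = 1.22e-10), with -1.83 after quantile normalization again. The metalloreductase Steap1 fell by 2.41, while its relative Steap3 rose by 1.26 and the metal importer Slc39a8 by 1.30 (SE 0.07, 0.09 and 0.06, adjusted p = 1.13e-09, 1.28e-06 and 4.55e-08). For Steap1 and Slc39a8 quantile normalization again gave -1.64 and 0.66. Fth1, the ferritin heavy chain, rose by 0.46 (adjusted p = 4.42e-06). Of the other ferroxidases, Heph stood at 0.14 (adjusted p = 0.237) and Hephl1 at 0.11 (adjusted p = 0.0988).

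Several of the 8 genes are also typical of neutrophils, macrophages or liver, so markers of those cells were measured on the same arrays. Of 14 neutrophil markers, 3 (21.4%) rose and 0 fell at 28 days, against 20.4% and 19.5% of all genes. These were Mmp8, by 4.29 (2.19 after quantile normalization again), and the granule proteases Elane and Prtn3, by 0.31 each, both of whose calls were lost after quantile normalization again (adjusted p = 0.0682 and 0.101). That of Prtn3 was also lost without 28-day replicate 2. The other 11, among them Mpo, Ly6g, S100a8, S100a9, Ltf and Camp, did not pass the test and differed by at most 0.16 in size. Summed over the 14 markers, values were -4.90 to -4.52 on undifferentiated arrays, -0.13 to 0.81 at 14 days and 0.16 to 0.92 at 28 days, a shift of about the size of that of Mmp8.

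Of 12 macrophage markers, 3 (25%) rose and 0 fell at 28 days, against the same shares. Cd14 rose by 2.74 and Csf1r by 2.10 (1.44 and 1.30 after quantile normalization again) and Cd68 by 0.75, while Ptprc, the pan-leukocyte gene, stood at -0.01, Adgre1 at -0.13, Itgam at 0.02 and C1qa at -0.01 with adjusted p-values of 0.932, 0.238, 0.807 and 0.919. The sum over the 12 was -4.87 to -4.33 on undifferentiated arrays, -0.43 to 0.00 at 14 days and 0.48 to 1.65 at 28 days. Of 8 hepatocyte markers, 1 (12.5%) rose and 0 fell at 28 days, against 20.4% and 19.5% of all genes. That was Apoa1, by 0.20 (adjusted p = 0.0402), a call lost under 11 of 18 alternatives, and the other 7 did not pass the test. The sum over the 8 was -0.29 to -0.07 on undifferentiated arrays, -0.29 to 0.04 at 14 days and 0.07 to 0.37 at 28 days. Centred values show no level, so whether a marker is absent cannot be read from them. The part of such cells in the results was not tested.

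As a check of the labels, the osteoblast markers Sp7, Bglap, Ibsp and Dmp1 did not pass the test at 28 days (0.02, -0.18, 0.03 and 0.01), and Alpl rose by 0.46 (SE 0.09, adjusted p = 0.0013) and Mepe by 0.35 (adjusted p = 0.0148), both lost after quantile normalization again. The call of Mepe was also lost without 28-day replicate 2 or 3. In all 2 of 9 osteoblast markers rose and 0 fell. Of 11 stromal markers 2 rose and 2 fell. Pdgfra rose by 1.42 (adjusted p = 7.58e-09), with 0.83 after quantile normalization again. Thy1 rose by 0.40, a call lost after quantile normalization again (adjusted p = 0.182). Cxcl12 fell by 0.92, with -0.53 after quantile normalization again, and Col1a1 by 0.39 (adjusted p = 3.42e-05). In cell types related or foreign to the line, 4 of 6 chondrocyte, 2 of 7 adipocyte and 2 of 6 epithelial markers rose and 0 fell. The chondrocyte markers were Prg4 (3.69), Sox9 (0.80), Col10a1 (0.77) and Col2a1 (0.16). The others were Fabp4 (3.63), Lpl (0.71), Krt14 (2.81) and Krt8 (0.59). After quantile normalization again Prg4, Fabp4 and Krt14 stood at 2.46, 1.90 and 2.03, and the calls of Col2a1 and Lpl were lost. That of Col2a1 was lost under 8 of 18 alternatives. Over all genes 20.4% rose and 19.5% fell. The induced cells are therefore named here by their days of induction.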

How the data were processed

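Total RNA was measured in 9 samples on mouse gene expression arrays, with 3 arrays per group. The authors' deposited values are on a log2 scale after RMA, per the submitters' processing notes. The log base is taken as 2. For the software, its version and the centring step, nothing is given in the sources used here. The centring was read from the values: the median of every probe set over the 9 arrays was 0. Of 33794 probe sets, 23521 named 1 gene, 1814 several and 8459 none, by the platform annotation. Probe sets of 1 gene were averaged to 22180 genes, of which 873 (3.94%) had identical values on all arrays of a group.

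The groups were compared with limma 3.58.1 in R 4.3.3, in a single fit over all 9 arrays with 6 residual and 3.81 prior degrees of freedom. Benjamini-Hochberg adjustment ran over all 22180 genes, and a call is an adjusted p under 0.05. The number of arrays limits the precision. The members and gene lists were chosen with earlier results of these data known. Named are the 8 genes, up to 5 called genes of each list with the largest change at 28 days, signalling and acute-phase genes called between 28 and 14 days, a set of regulators and relatives always given, and the 3 nearest genes by RMS difference. Lbp at 14 days, Fth1, Cd163, Il13ra2, Tmem219, Anxa2, Scarb1, Tlr2, Fpr2, Ager and the uncalled markers were named after their values were seen. The code was tested on simulated data. Alternatives left out each array, added a replicate block, fitted groups alone, normalized again by quantiles, and changed the variance model, threshold and gene set. Arrays were treated as unpaired, since no pairing is stated. Deviations from group means of arrays with the same number correlated between -0.139 and 0.0677, and with different numbers between -0.12 and 0.145. With 3 arrays per group these deviations sum to 0 within a group, so the correlations cannot exclude a pairing.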

Additional observations from a re-analysis of the deposited data

How the results depend on the processing

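The 8 genes gave 408 values under 17 alternatives. Of these, 383 were unchanged, 19 were no longer called, 6 moved by more than the replicate spread (all after quantile normalization again) and 0 reversed. For Chil1, Lcn2 and Wfdc1 against undifferentiated cells no threshold was applied, and unchanged means within the replicate spread. For all other values it means the same direction and side of the threshold. The late steps of these 3 genes are counted although they are a description. Of the 5 genes not chosen for their rises, 3 were called between 28 and 14 days. In limma's test against a 1.5-fold change, 0 of them were. Counts over all genes moved more. At 14 days 7920 genes were called, against 5200 after quantile normalization again and 1582 against a 1.5-fold change. At 28 days the count was 8845, against 5662 and 2010. Between 28 and 14 days it was 1639, against 991 without 14-day replicate 1, 1017 without 14-day replicate 2, 813 at adjusted p under 0.01 and 28 against a 1.5-fold change; beyond the stricter thresholds and fewer arrays, the cause was not tested. With the replicate number as a block, 7846, 8726 and 1390 genes were called at 14 days, at 28 days and between them. Between 28 and 14 days Slpi, Hp and Ptx3 were again called (adjusted p = 0.00102, 0.0275 and 0.0319), and Saa3 and Cp again were not. The block changed no call of the 5 genes of the group that were not chosen for their rises. Outside the group it lost calls, among them Wfdc2 and Apoa1 at 28 days and Osmr between 28 and 14 days. Centred values hold no signal over background, so dim probe sets could not be told from bright ones.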
